A study of Rattus norvegicus with 70 samples.

Results

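The T, NK and B lymphocyte genes are 32 rat genes listed by name: antigen receptor chains, coreceptors, signalling kinases, cytotoxic granule genes, B cell surface and nuclear genes, and plasma cell genes. Each was looked up by its NCBI gene number. Of the 32 genes, 29 were among the 15319 genes of all 6 count tables, and 3 (Tcf7, Cd79a and Jchain) were not analysed here. The genes were counted in RNA from 3 fat depots of adolescent rats of the outbred Sprague-Dawley stock after nose-only inhalation of PCB 52 or sham exposure. PCB 52 is a chlorinated biphenyl, one of a class of persistent industrial chemicals. The study asks how this inhalation changes gene expression in fat.

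Lymphocytes read antigen through surface receptors. In T cells the CD3 and zeta chains pass the signal to the kinases Lck and Zap70. In B cells the CD79 chains pass it on from membrane immunoglobulin. Fat holds scattered lymphocytes among many more macrophages, and lymph nodes lie embedded within several fat pads.

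All rats arrived at 28 days of age. Exposure ran for 4 h a day over 28 days, beginning at 42 days of age in females and 39 days in males, so sex and starting age differed together. Brown fat (BAT), fat from under the skin (SAT, subcutaneous) and fat of the body cavity (VAT, visceral) gave 70 libraries from 24 rats. The 12 groups of sex, depot and treatment held 6 libraries each, with 5 in only 2 of them, the sham females' SAT and the PCB 52 males' VAT. Libraries are named here by the animal number of their titles. The same numbers recur in the 3 depots, each with 1 sex and treatment, but the labels do not say in words that a number is the same rat. The p-values measure the spread between these libraries. The labels do not name the site of the SAT or VAT pads.

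Promoters of 22 of the 32 genes were found in RefSeq (build GRCr8), each a window of 300 bases, from 250 bases before the gene start to 50 after it. The promoters of 3 T cell genes that the depot comparisons turn on are shown, because they hold ETS letters, which recur in the group, and those of Lck and Il7r also hold RUNX letters. Capitals mark CAGGAAG (ETS) or TGTGGTT (RUNX) on either strand. Lck encodes the kinase nearest the T cell receptor and lies at chr5:147201218-147201517, minus strand. Il7r encodes the interleukin 7 receptor of naive and memory lymphocytes and lies at chr2:60204868-60205167, minus strand. Prf1 encodes perforin, the pore-forming protein of killer cells, and lies at chr20:29788790-29789089, plus strand. All are written 5′ to 3′ on the gene's strand.
Lck: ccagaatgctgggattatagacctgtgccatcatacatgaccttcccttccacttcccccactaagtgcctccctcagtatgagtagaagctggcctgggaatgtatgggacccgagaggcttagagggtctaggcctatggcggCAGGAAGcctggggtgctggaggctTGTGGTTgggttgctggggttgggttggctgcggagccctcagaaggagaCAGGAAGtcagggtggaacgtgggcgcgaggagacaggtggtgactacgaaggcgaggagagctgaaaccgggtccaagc
Il7r: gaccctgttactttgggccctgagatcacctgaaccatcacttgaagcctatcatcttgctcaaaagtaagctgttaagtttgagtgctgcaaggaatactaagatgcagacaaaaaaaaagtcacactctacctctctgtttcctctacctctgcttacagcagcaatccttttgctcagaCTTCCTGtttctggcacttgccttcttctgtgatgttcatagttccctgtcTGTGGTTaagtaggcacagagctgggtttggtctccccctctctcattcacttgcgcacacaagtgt
Prf1: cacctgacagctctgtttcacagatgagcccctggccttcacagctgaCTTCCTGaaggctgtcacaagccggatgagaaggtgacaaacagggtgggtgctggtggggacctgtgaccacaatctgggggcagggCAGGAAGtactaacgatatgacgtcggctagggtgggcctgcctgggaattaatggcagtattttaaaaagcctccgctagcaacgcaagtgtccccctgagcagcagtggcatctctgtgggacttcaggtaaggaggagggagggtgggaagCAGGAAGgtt
The Lck window holds CAGGAAG at 105 and 30 bases before the gene start and TGTGGTT at 80 bases before it. The ETS letters were in 11 of the 22 promoters (50%), against 12.5% of 33469 rat promoters of the same length. The RUNX letters were in 5 of 22 (22.7%), against 5.57%. The TCF/LEF letters CTTTGAT were in 2 of 22 (9.09%), against 3.63%. The octamer ATGCAAAT, known from immunoglobulin promoters, was in 0 of 22, against 1.78% of all promoters. These counts describe letters in a window and were not tested.

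Total counts ran from 4604116 to 9707132 per library, so 3 counts, taken as the floor of detection, equal 0.309 to 0.652 CPM, the usual depth-scaled count, here over each library's plain total. The BAT label matched its marker: the brown fat gene Ucp1 reached medians of 5601 CPM (females) and 6238 CPM (males) in BAT, and of at most 0.132 in the other tables. Single libraries overlapped: the lowest female BAT library was at 114 CPM and 1 female VAT library at 338. The milk protein gene Csn1s1 had a median of 6291 CPM in female SAT and 40140 in male SAT and reached at most 1.67 CPM elsewhere. Casein RNA, which marks mammary epithelium, thus varied widely among the SAT libraries. A pair of libraries stood apart by missing genes. Of 10355 genes with a median count over 20, female SAT sham animal 8 listed 705 at 0 and male VAT PCB 52 animal 13 listed 559, of which 264 lie on chromosome 9 and 284 on chromosome X. The other 68 libraries listed at most 19. In the first of them 14 of the 29 lymphocyte genes were at 0 and Cd4 was at 2.57 CPM. In the other Zap70 and Cd28, both on chromosome 9, were at 0.

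The widest differences were between single libraries. Summed over the 29 genes, 66 libraries held 54.5 to 258 CPM (median 137), and 4 held 484 to 3428. Those 4 exceeded 3 times the median of their sex and depot and are called lymphoid-rich below. They were female VAT sham animal 8 at 484 CPM and animal 10 at 804 CPM, male SAT sham animal 11 at 1326 CPM, and male SAT PCB 52 animal 23 at 3428 CPM. Their ratios to the median were 3.29, 5.46, 8.16 and 21.1. Just below the threshold lay female BAT PCB 52 animal 24 with 258 CPM, a ratio of 2.99. In that library Cd4 alone took 189 CPM, and the sum without Cd4 was 69.6 CPM. The libraries with the same 4 numbers in the other depots gave ratios between 0.393 and 1.98, so no number was high in every depot. Both treatments and both sexes were among the 4, and no BAT library was.

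**Figure D1:**
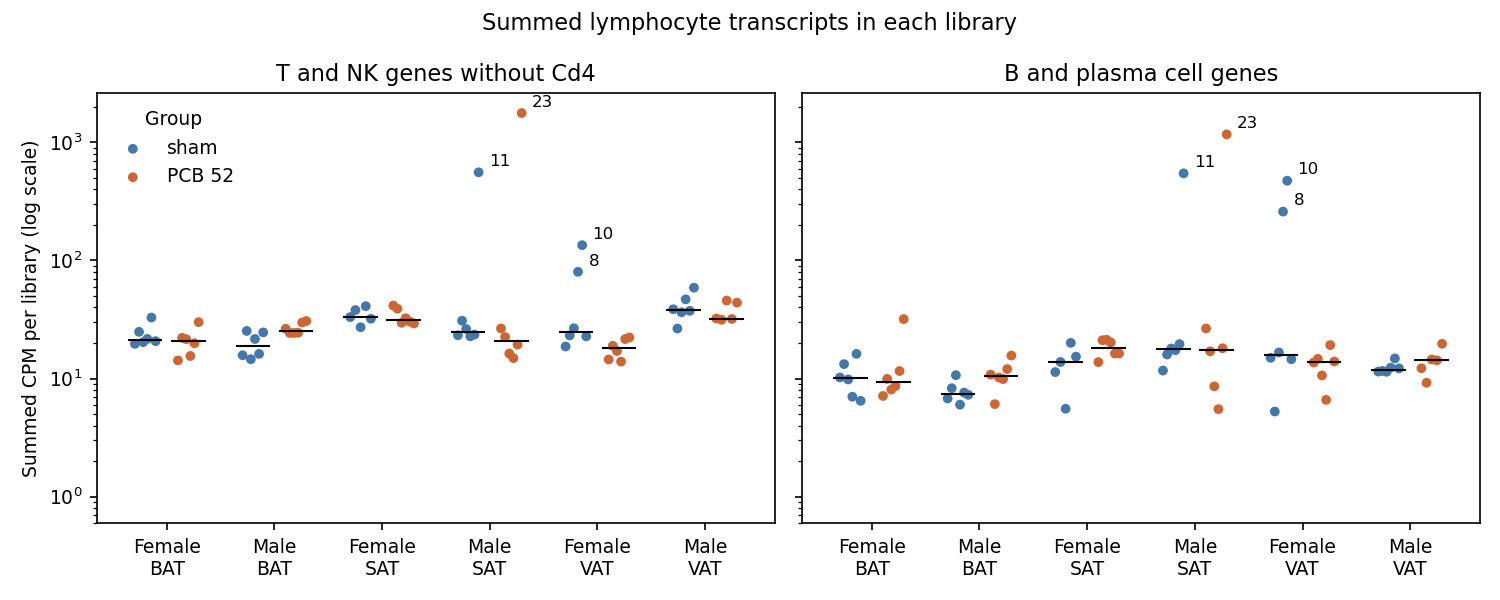
Summed CPM of the T and NK genes without Cd4 (left) and of the B and plasma cell genes (right) in each of 70 libraries, on a log scale, by sex and depot. Points are libraries, blue sham and orange PCB 52, bars are group medians, and numbers name the 4 lymphoid-rich animals. The T and NK sums of these 4, which were chosen by the sum of all the genes, lie between 80.2 and 1773 CPM, above the highest other library at 58.8.

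The 4 libraries differed in the kind of lymphocyte gene. The B and plasma genes summed to 259 CPM in VAT animal 8 and 474 in VAT animal 10, against 5.25 to 19.2 in the other 10 female VAT libraries. The T and NK genes without Cd4 summed to 80.2 and 135 CPM there, against 13.9 to 26.7. The ratio of the first sum to the second was 3.23 and 3.52 in the VAT pair. In the male SAT pair the B and plasma sums were 547 CPM (animal 11) and 1169 (animal 23), and the T and NK sums were 558 and 1773. Their ratio was 0.980 in animal 11 and 0.659 in animal 23, against 0.370 to 1.00 in the other 10 male SAT libraries. The VAT pair was thus tilted to B cell genes, and the SAT pair held both sums in a proportion found in its depot. Among all 66 other libraries the ratio did not pass 1.06. This is a description of 4 libraries, with no test.

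By role, the CD3 and zeta chains set all 4 apart. Cd3e, a CD3 chain of the T cell receptor, was at 6.09 and 9.16 CPM in VAT animals 8 and 10, 45.8 in SAT animal 11 and 152 in SAT animal 23. The other 66 libraries lay at 0 to 2.32 CPM. Cd247, the zeta chain, was at 3.39, 8.15, 34.4 and 109 CPM in the same order. Cd3g lay at 3.93 to 113 CPM in the 4 and at 2.03 or lower elsewhere. Lck was at 15.98, 20.5, 97.3 and 301 CPM, and every other library was at 10.2 or lower. Among the coreceptors, Cd6, a T cell adhesion receptor, was at 7.31, 13.2, 66.2 and 229 CPM, and the other libraries reached 4.15. Cd8a, the CD8 alpha chain, was at 4.88 and 10.6 CPM in the VAT pair, while female SAT sham animal 8, a library with missing genes, was at 9.33. Lef1, a transcription factor of naive T cells, was at 86.3 CPM in SAT animal 23. That is 634 times the median of the libraries of its table that were not lymphoid-rich.

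The B cell genes were nearly at 0 outside the 4. Cr2, the complement receptor of mature B cells and follicular dendritic cells, was at 67.8 and 105 CPM in the VAT pair and at 108 and 212 in SAT animals 11 and 23. It was at 0 in 41 of the other 66 libraries and reached 1.02 CPM. Pax5, the B cell identity factor, was at 4.47, 14.3, 19.1 and 37.0 CPM, against at most 2.03. Ms4a1, the gene of CD20, was at 23.7, 41.8, 60.1 and 114 CPM and at most 1.55 elsewhere. Cd79b, a signalling chain of the B cell receptor, was at 44.8, 83.1, 91.6 and 221 CPM and at most 2.29 elsewhere. Pou2af1, an octamer coactivator of B cells, was at 18.8, 50.8, 47.4 and 103 CPM, and at most 4.75 elsewhere. Mzb1, a plasma cell chaperone, was at 2.98, 15.4, 8.67 and 10.1 CPM. One other library exceeded the lowest of these, a male SAT library at 4.09. Ltb, lymphotoxin beta, which organises lymphoid tissue, was at 59.6, 77.2, 107 and 272 CPM, and at most 32.1 elsewhere.

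Gzmb, Nkg7 and Cd4 stood least apart. Gzmb, the killer cell protease granzyme B, was at 0, 0.429, 1.79 and 0.729 CPM in the 4, within the 0 to 3.41 of the other libraries. Nkg7, a granule membrane protein, was at 1.90, 2.15, 5.87 and 5.68 CPM, and male VAT sham animal 7, which is not lymphoid-rich, had 10.6. Prf1 was at 6.77, 7.44, 21.2 and 49.7 CPM, each above every library of its table that was not lymphoid-rich, and it reached 8.18 in male VAT. Cd4, the coreceptor of helper T cells, was at 85.3, 118 and 114 CPM in VAT 8, VAT 10 and SAT 11, inside the range of their own tables. It was above that range at 213 CPM only in SAT animal 23. Each of the 4 was set against the libraries of its sex and depot that were not lymphoid-rich. Above all of these were 26 of the 29 genes in each of the VAT pair and 28 of 29 in each of the SAT pair. The same 29 genes had chosen the 4 libraries. Of all genes, 16.7% (VAT 8), 21.7% (VAT 10), 13.5% (SAT 11) and 31.3% (SAT 23) were highest in the same sense. In bulk tissue, a larger number of cells of a type and more RNA per cell cannot be told apart.

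**Figure D2:**
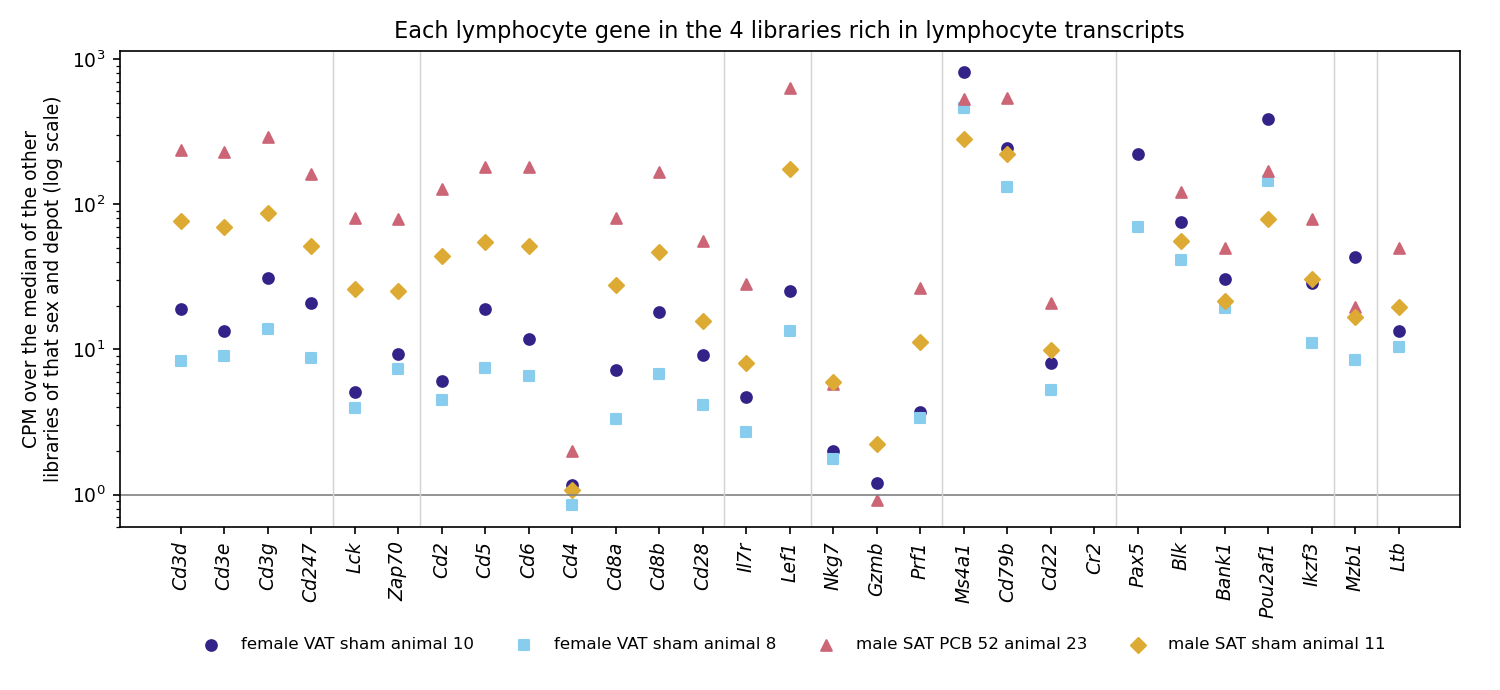
CPM of each lymphocyte gene in the 4 lymphoid-rich libraries, divided by the median of the libraries of that sex and depot that are not lymphoid-rich. The scale is logarithmic, and vertical lines part the roles. Cr2 in every library, Pax5 in SAT and Gzmb in VAT animal 8 have no point because the median or the value is 0. Cd4 and Gzmb lie near 1, and Lef1 (634 in SAT animal 23) and Ms4a1 (811 in VAT animal 10) reach the highest ratios.

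Other genes moved with them, named here after their values were seen. Marco, a scavenger receptor of macrophages in lymph node sinuses and splenic marginal zone, was at 59.6 and 50.5 CPM in the VAT pair and at 38.9 and 96.9 in SAT animals 11 and 23. It was at 0 in 65 of the 66 other libraries and at 0.138 CPM in the last. Ccl19, a chemokine of the T cell zone, was at 4.06, 10.7, 40.3 and 68.5 CPM, and at most 2.62 elsewhere. Glycam1, a ligand on high endothelial venules and also a milk gene, was at 44.7 and 9.16 CPM in the VAT pair, against at most 0.551 in that table. It was at 116 and 230 CPM in the SAT pair, against at most 3.83 in male SAT, but it reached 2169 in female SAT. Ccl21 and Tnfsf11, looked up in the same way, did not set the 4 apart from all others. Ccl21 was at 50.2 to 802 CPM in the 4 and reached 905 in female SAT sham animal 8. Tnfsf11 was at 6.44 to 24.2 CPM in the 4 and reached 79.7 in female SAT sham animal 2. Of the list of 14 lymph node stroma and follicle genes, 5 (VAT 8), 6 (VAT 10), 6 (SAT 11) and 7 (SAT 23) were above every library of the table that was not lymphoid-rich. Among them the follicular gene Fdcsp was at 0 in the VAT pair and within the table's range in the SAT pair.

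Of 46 further T and NK genes, 30, 33, 36 and 40 were above every library of the table that was not lymphoid-rich, in the same order. Of 26 further B and plasma genes the numbers were 20, 21, 18 and 18. Of 8 germinal centre and proliferation genes they were 0, 0, 2 and 1. Of 8 thymus genes, 4 were above the others in each library, and Rag1, which recombines antigen receptor genes in the thymus, was at 0 in all 4. Macrophage and dendritic markers were above in 4, 6, 6 and 6 of 17. These counts stand beside the 16.7%, 21.7%, 13.5% and 31.3% of all genes given above, so the 6 of 17 in SAT animal 23 is near the share of all genes there. All 7 skeletal muscle markers were above the rest of the table in VAT animal 8, with a sum of 924 CPM, and 1 of 7 in VAT animal 10. Whether the dissected piece held a lymph node was not tested.

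Outside the 4, most lymphocyte genes were near the floor of detection. Median CPM in the 6 tables of sex and depot, without the 4, lay between 0.196 and 0.597 for Cd3d and between 0.653 and 1.21 for Cd3e. They lay between 0.419 and 0.726 for Cd5, a T cell scavenger receptor, and between 0.180 and 0.716 for Cd8b, the CD8 beta chain. Cd28, the costimulatory receptor, had medians of 0.413 to 0.666. Blk, a B cell kinase, had medians of 0.303 to 0.741, and Bank1, a B cell scaffold protein, of 0.581 to 1.58. These genes had a few reads per library, and differences between single libraries were not detectable at this depth.

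Several genes were well above the floor. Lck had its highest medians in male VAT (6.92 CPM, range 4.82 to 10.2, n = 11) and female SAT (6.81, range 1.08 to 8.45, n = 11). Female VAT (4.03, n = 10), male BAT (3.83, n = 12), male SAT (3.74, n = 10) and female BAT (3.02, n = 12) followed with overlapping ranges. Il7r was at medians of 8.36 CPM in female SAT, 6.07 in male SAT, 5.93 in male VAT, 4.31 in female VAT, 4.04 in male BAT and 3.31 in female BAT, again with overlapping ranges. Prf1 ran from 1.19 CPM (range 0 to 1.91) in female SAT to 5.13 (2.93 to 8.18) in male VAT, and those ranges did not overlap. Nkg7 was at 3.48 CPM (2.05 to 10.6) in male VAT and at 0.984 to 2.01 in the other 5 tables. Ltb had medians of 11.7 CPM in female SAT and 9.25 in male VAT, and of 4.15 to 6.59 in the rest.

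**Figure D3:**
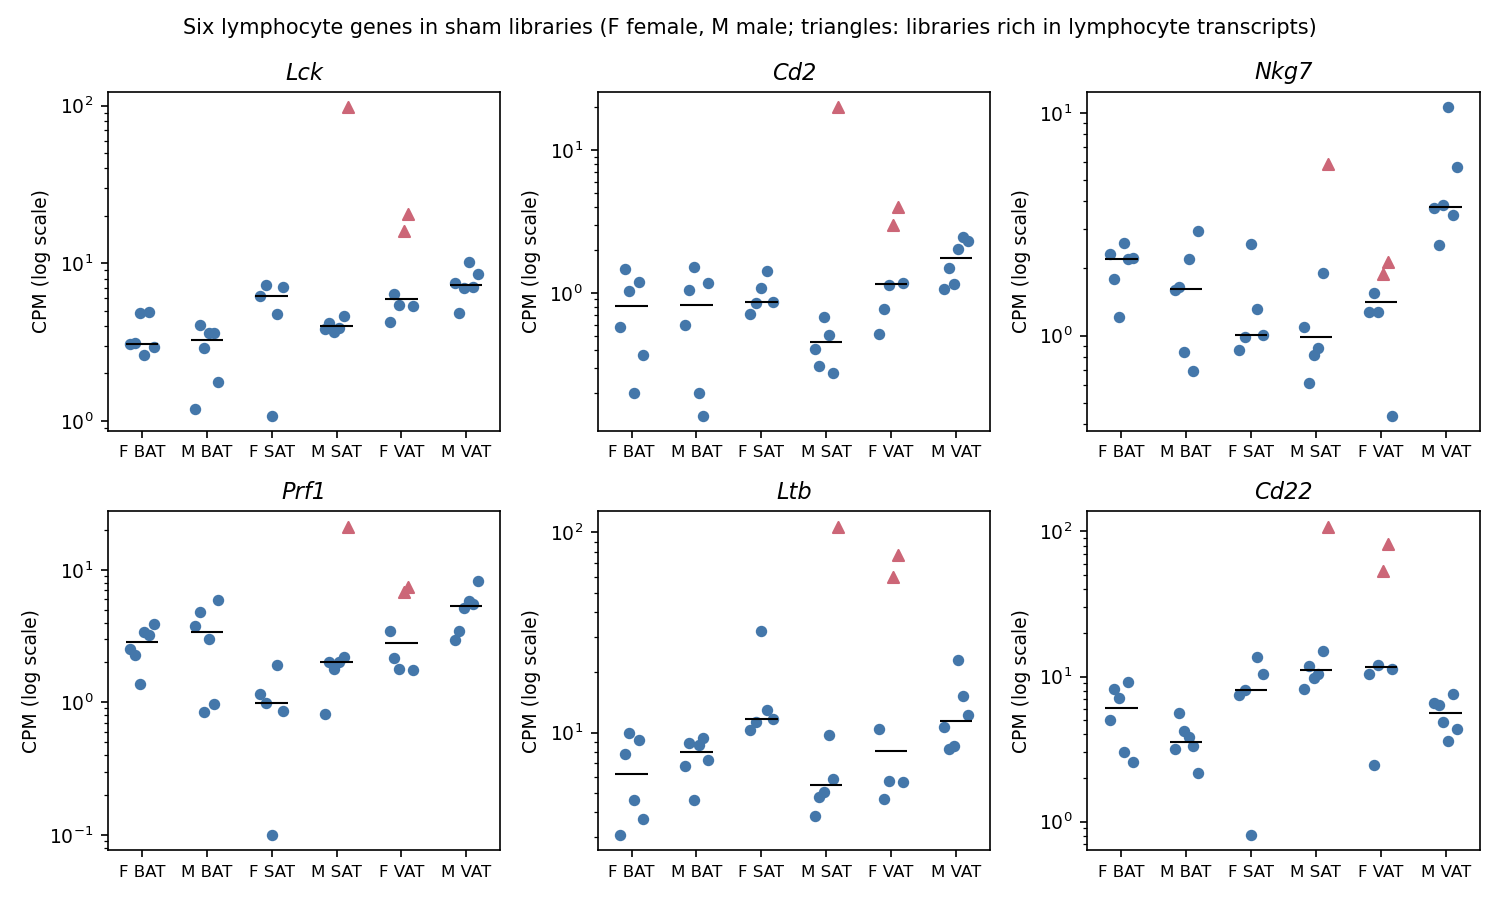
CPM on log scales of Lck, Cd2, Nkg7, Prf1, Ltb and Cd22 in the sham libraries, by sex and depot; bars are medians, triangles lymphoid-rich libraries, and a library at 0 is drawn at 0.1. The median of Nkg7 is highest in male VAT, whose lowest library is at 2.56 CPM, and the median of Prf1 is lowest in female SAT.

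Cd4 and Cd22 followed a macrophage gene. Cd4 took a median of 62.6% of the summed CPM in the 66 libraries, a share that gene length also sets. Rat macrophages are known to carry CD4 as well as helper T cells. Across libraries of one sex and depot without the lymphoid-rich ones (10 to 12 each), Cd4 was compared with Csf1r, the macrophage growth factor receptor gene. Pearson's r was 0.901 to 0.991 and Spearman's rho 0.827 to 0.927 in the 6 tables, and the permutation p, adjusted over 18 relations, was 9e-05 to 0.00114 for r and 0.000828 to 0.00566 for rho. Without the 2 libraries farthest from the median of Csf1r, r was 0.719 to 0.969.

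Cd22, an inhibitory receptor best known from B cells, gave r of 0.399 to 0.967 and rho of 0.473 to 0.964. Its permutation p passed 0.05 after adjustment in 5 of 6 tables for both measures. Male VAT, at r = 0.399 (n = 11, permutation p = 0.228, adjusted 0.266), was the exception. Without the 2 farthest libraries r was 0.513 to 0.898. The T cell kinase gene Lck gave r of -0.308 to 0.663, with adjusted permutation p of 0.053 to 0.729, so none of 6 passed for r. For rho, of -0.188 to 0.650, 1 of 6 passed, female BAT at an adjusted permutation p of 0.0396. Without the 2 farthest libraries, r for Lck was -0.71 to 0.707. For Cd4, the smallest p the permutations could give before adjustment, 1e-05, was reached in female BAT and female SAT. The libraries with missing genes, female SAT sham animal 8 and male VAT PCB 52 animal 13, were kept in these relations. The library of female BAT PCB 52 animal 24, highest in Cd4 outside the lymphoid-rich ones, was also the highest in Csf1r at 538 CPM. The libraries of a table share their depth range and tissue piece, and whether gene level or cell mixture moved was not tested.

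**Figure D4:**
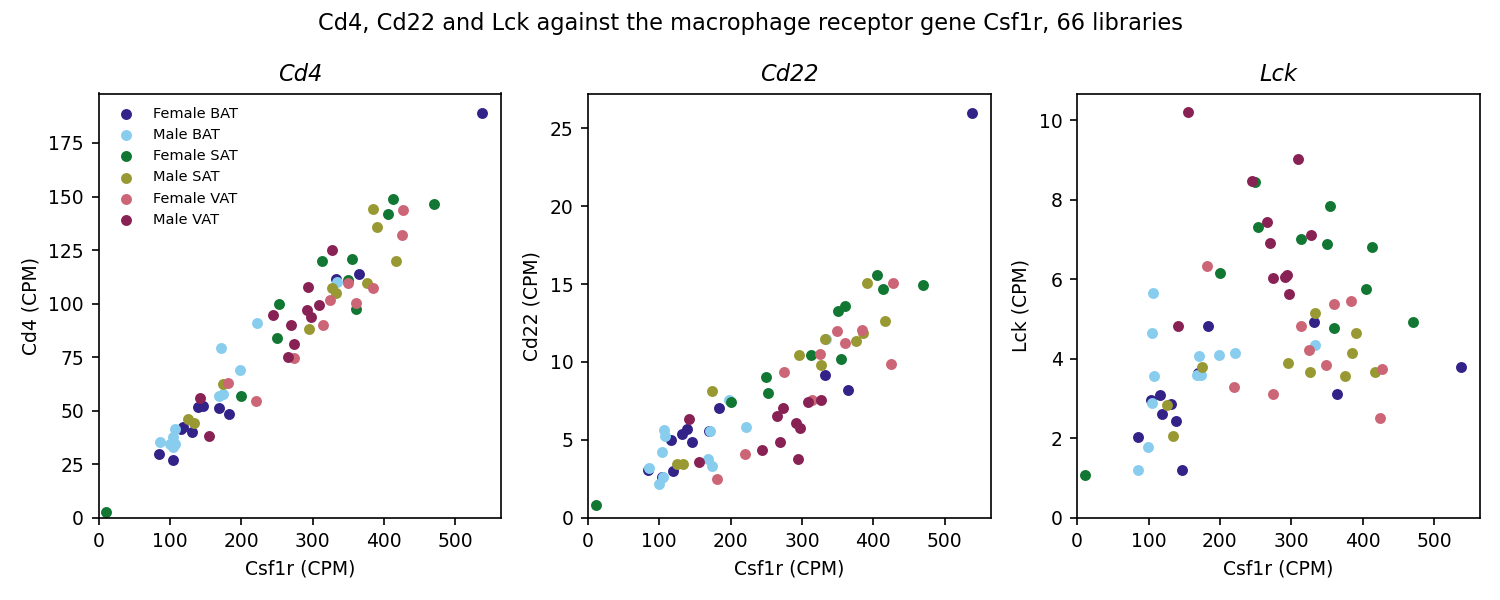
CPM of Cd4, Cd22 and Lck (y axes) against CPM of Csf1r (x axes) in the 66 libraries that are not lymphoid-rich, coloured by sex and depot. Within each sex and depot Cd4 rises with Csf1r (r of 0.901 to 0.991), and Lck shows r of -0.308 to 0.663.

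Depots were compared in sham rats of each sex. The expression filter, which asks for enough reads in enough libraries, kept 13 of the 29 genes in females and 12 in males, and a gene is called here where edgeR's adjusted p is under 0.05. In males, 8 of 12 genes were called between SAT and BAT, as were 55.3% of all genes tested, and all 8 were higher in SAT, against 27.3% of all genes. They were Lck, Zap70 (the second receptor kinase), Cd6, Cd4, Cd8a, Il7r, Cd22 and Ikzf3 (Aiolos, a lymphocyte transcription factor). The values turned on 1 library. Lck was at 1.20 to 4.07 CPM (median 3.24) in BAT and 3.68 to 97.3 (median 4.03) in SAT. The log2 fold change of Lck was 2.55 (SE 0.80, adjusted p = 0.013, edgeR), and without SAT animal 11 it was 0.27 (adjusted p = 0.41).

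SAT animal 11 had been named by its high sum of these same genes, so leaving it out lowers the SAT side of genes high in it by construction. Without that library, a setting chosen after seeing the data, 4 of 12 genes were called, against 53.6% of all genes. Cd22 (log2 fold change 1.33), Il7r (1.27) and Cd4 (0.88) were higher in SAT. Prf1 was lower (-1.10), which it had not been with all libraries (0.42). Cd22 had stood at 2.64 and Il7r at 2.14 with animal 11. Cd6 turned from 3.28 to -0.14 and Ikzf3 from 2.41 to -0.24. Zap70 went from 2.41 to 0.05 and Cd8a from 2.28 to 0.02, and none of these 4 was called without it. Ikzf3 was also not called without BAT animal 3 (2.35), 7 (2.34) or 9 (2.38). DESeq2 called 2 of the 4 genes to which it gave a p, and gave none to the other 8, among them Lck, Zap70, Cd6, Cd8a, Cd22 and Ikzf3. Of 16 tested macrophage and dendritic markers, 11 were higher in male SAT than in BAT, and 10 without animal 11. Over all genes 3157 of 11580 were higher in SAT, and 3036 of 11647 without animal 11. The summed CPM of the markers was 1383 to 2590 in SAT and 766 to 1364 in BAT. The markers' part in the Cd4 and Cd22 differences was not tested.

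Male VAT against SAT gave 2 of 12 genes, both lower in VAT (12.4% of all genes were lower and 23% called either way). Cd22 had a log2 fold change of -2.46 (SE 0.57, adjusted p = 0.0065, edgeR) and Il7r of -1.86 (adjusted p = 0.018). Leaving out SAT animal 11, named by these same genes, lowers the SAT side by construction, so the calls without it describe the other libraries and are no independent test. Without it 6 of 12 were called, against 19.3% of all genes, 5 of them higher in VAT. These were Nkg7 (log2 fold change 2.08), Cd2, a T and NK adhesion receptor (1.79), Prf1 (1.40), Ltb (1.02) and Cd8a (0.93). Cd22 was still lower (-1.15), and Il7r at -0.996 was no longer called. With all libraries Cd2 was at -1.25, Prf1 at -0.12, Ltb at -0.95 and Cd8a at -1.33. Cd6 was called without SAT animal 3 (-2.91), 5 (-2.95), 7 (-2.91) or 9 (-2.95), Ikzf3 without SAT animal 3 (-2.35) or 9 (-2.36), and Cd4 without VAT animal 9 (-0.78). DESeq2 called 1 of the 4 genes to which it gave a p, and gave none to the other 8, Cd22 and Cd6 among them. Nkg7 was at 2.56 to 10.6 CPM (median 3.79) in the 6 VAT libraries and at 0.615 to 1.92 in the 5 other SAT libraries, with no overlap. Cd2 was at 1.07 to 2.47 CPM in VAT and 0.274 to 0.681 in those 5 SAT libraries, also with no overlap. These CPM are over plain totals, of which Csn1s1 took a median of 40140 CPM and up to 213614 in male SAT. Its part in these ranges was not tested.

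Male VAT against BAT gave 0 of 12 genes by edgeR, against 49.8% of all genes. At an unadjusted p under 0.05 there was 1, Nkg7 (6472 of 11580 over all genes), and DESeq2 called 1 of the 4 to which it gave a p. All 12 log2 fold changes were above 0, with a median of 0.51 against 0.03 for all genes. Without SAT animal 11, which is in neither group but enters the filter, the scaling and the shared estimate of spread, 3 were called, against 52.2% of all genes. They were Nkg7 (1.25), Lck (1.01) and Cd8a (0.95), all higher in VAT. Nkg7 was also called without BAT animal 11 (1.504) or VAT animal 3 (1.42).

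**Figure D5:**
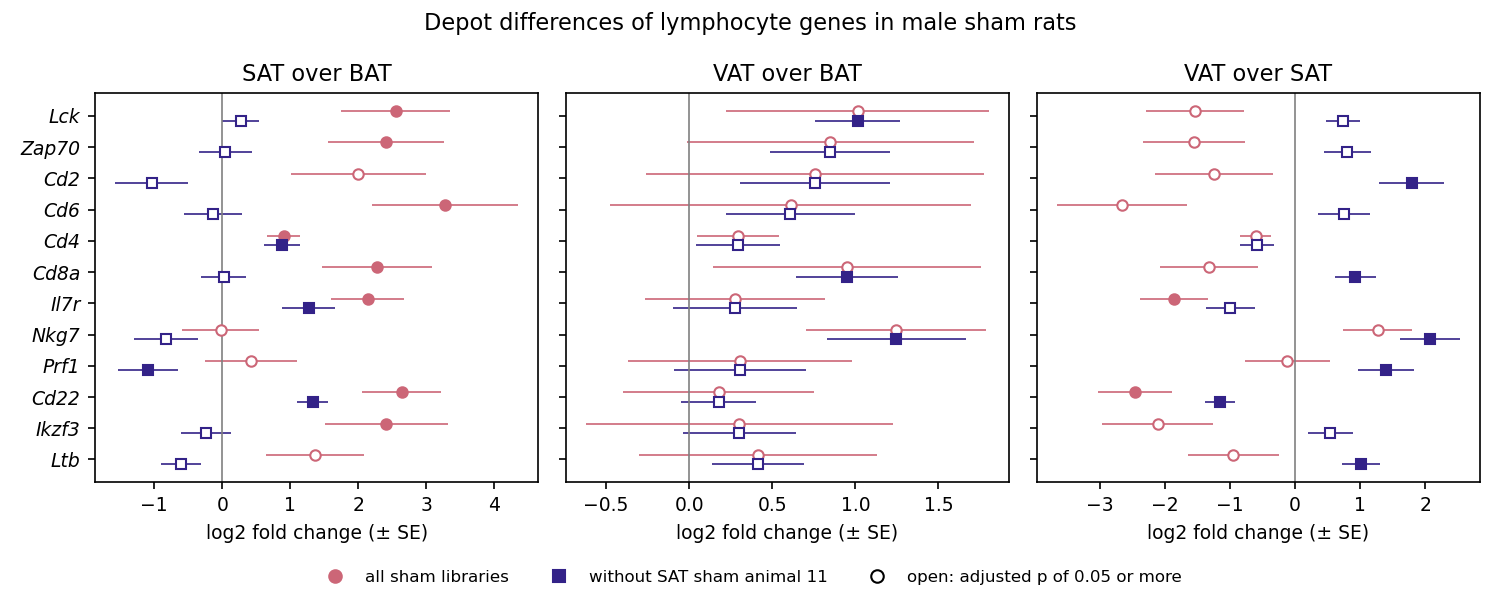
log2 fold changes (± SE) of the 12 tested lymphocyte genes between depots of male sham rats, with all libraries (circles) and without SAT animal 11 (squares); filled symbols have an adjusted p under 0.05. Without that library, which was named by its high sum of the lymphocyte genes, Nkg7, Cd2, Prf1, Ltb and Cd8a are higher in VAT than in SAT. Cd6 and Ikzf3 change sign in both comparisons with SAT.

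In females, Prf1 was the 1 gene of 13 called between SAT and BAT (20.3% of all genes were lower and 47.6% called either way). Prf1 was at 0, 0.860, 0.986, 1.15 and 1.91 CPM in SAT and at 1.38 to 3.89 (median 2.87) in BAT. Its log2 fold change was -1.80 (SE 0.55, adjusted p = 0.013, edgeR). It was -1.59 without SAT animal 8, the library with missing genes. There Nkg7 was also called (-1.39), making 2 of 15, against 61.6% of all genes. Without the lymphoid-rich VAT pair, 2 of 13 were called, against 44.8% of all genes, Prf1 (-1.85) and Ltb (1.33, higher in SAT). Ltb stood at 32.1 CPM in SAT animal 8 and at 10.3 to 12.9 in the other 4 SAT libraries, and at 3.08 to 9.99 in BAT. Without SAT animal 8, and with the VAT pair kept, Ltb was at 0.43 (adjusted p = 0.62, edgeR).

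Female VAT against BAT gave 2 of 13 genes, both higher in VAT (11.2% of all genes were higher and 25.5% called either way). Lck had a log2 fold change of 1.21 (SE 0.40, adjusted p = 0.032, edgeR) and Cd22 of 2.07 (adjusted p = 0.027). Lck was at 2.60 to 4.94 CPM (median 3.09) in BAT and at 4.22, 5.39, 5.46, 6.34, 15.98 and 20.5 in VAT, the last pair being animals 8 and 10. Without both of them, 0 of 13 genes were called by edgeR, against 17.4% of all genes, and 0 had an unadjusted p under 0.05. Neither gene was called without VAT animal 8 (Lck 1.02, Cd22 1.78), VAT animal 10 (0.89, 1.45) or BAT animal 2 (1.18, 2.04), 8 (1.15, 1.94) or 12 (1.18, 1.92). Lck was not called without BAT animal 4 (1.16). Without SAT animal 8 the number called was 4 of 15, against 46.2% of all genes, with Ltb (1.83) and Il7r (0.95) added. Ltb was also called without VAT animal 4 (2.07). DESeq2 called 4 of 13, against 31.2% of all genes.

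Female VAT against SAT gave 3 of 13 genes, all higher in VAT (16.5% of all genes were higher and 39.7% called either way). They were Prf1 (2.08, SE 0.55, adjusted p = 0.0066, edgeR), Ikzf3 (2.58) and Cd22 (1.92). Without animals 8 and 10 of VAT, 0 were called by edgeR, against 31.1% of all genes, and 2 had an unadjusted p under 0.05 (5043 of 11914 over all genes). Prf1 was then at 1.41 (adjusted p = 0.062) and Ltb at -1.43 (adjusted p = 0.068). Cd22 was not called without VAT animal 8 (1.64) or 10 (1.31), or without SAT animal 2 (1.91) or 6 (1.94). Ikzf3 was not called in 12 of the 17 fits that each left out 1 library, at 1.39 without VAT animal 10 and 2.35 to 2.58 in the other 11. Lck was called without VAT animal 2 (1.13), and Gzmb (-2.22) without SAT animal 8. In SAT Ikzf3 was at 0 CPM in animal 8, and at 0.718 to 2.96 in the rest. Count table and depot cannot be told apart in any of these comparisons, since each depot has its own table.

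Sexes were compared in sham rats. In BAT, 0 of 8 tested genes were called by edgeR, against 0.0652% of all genes, with 0 at an unadjusted p under 0.05 and 0 by DESeq2, which gave an adjusted p to 6 of them. Over all genes in SAT, 2277 of 11626 had an unadjusted p under 0.05. There 0 of 10 lymphocyte genes were called, against 1.09% of all genes, with 4 at an unadjusted p under 0.05 (Cd6, Prf1, Cd22 and Bank1). DESeq2 called 0 of the 2 genes to which it gave a p, and gave none to the other 8, these 4 among them. All 10 log2 fold changes were above 0, that is higher in males, with a median of 1.89 against -0.02 for all genes. Without male SAT animal 11, 5 of 9 were above 0 with a median of 0.22. Lck went from 2.12 to -0.16, Zap70 from 1.79 to -0.56, Cd8a from 1.08 to -1.15 and Ltb from 0.34 to -1.61. There 0 were called by edgeR, against 1.57% of all genes, and 1 (Ltb) had an unadjusted p under 0.05.

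In VAT, 2 of 13 genes were called between the sexes, against 11.5% of all genes. Nkg7 was higher in males at 2.56 to 10.6 CPM (median 3.79), against 0.437 to 2.15 (median 1.41) in females, and the groups did not overlap. Its log2 fold change was 1.74 (SE 0.41, adjusted p = 0.017, edgeR). Cd22 was lower in males (-2.41, SE 0.64, adjusted p = 0.030, edgeR), at 3.57 to 7.55 CPM against 2.47, 10.5, 11.2, 12.1, 53.6 and 81.7. Without female animals 8 and 10, Nkg7 was at 2.00 (adjusted p = 0.036) and Cd22 at -0.84 (adjusted p = 0.19). Pou2af1 then passed the threshold as well (adjusted p = 0.034, edgeR), so 2 of 13 were called, against 6.17% of all genes. It was at 0.452 to 4.75 CPM in the 6 males and at 0, 0.127, 0.155 and 0.256 in the 4 remaining females, where every value is below the floor of 3 counts. It passed the filter through the males, and its fitted log2 fold change, 3.61 here and -2.51 with all libraries, depends on how counts near 0 are treated and is no bound. Cd22 was also not called without female animal 8 (-2.13) or 10 (-1.78) or without male animal 3 (-2.45), 5 (-2.37), 7 (-2.33) or 9 (-2.50).

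The effect of PCB 52 against sham was fitted in each depot for females, for males, for both together, and as the difference between the sexes in that effect (the interaction). The filter kept 7 to 17 of the 29 genes. In each of the 12 comparisons, 0 lymphocyte genes were called by edgeR and 0 by DESeq2. DESeq2 gave an adjusted p to only part of the genes in 7 of them. These were 1 of 8 in male BAT, 6 of 9 in BAT over both sexes, 8 of 9 in female SAT, 1 of 10 in male SAT, 2 of 15 in SAT over both sexes, 2 of 15 for the SAT interaction and 16 of 17 for the VAT interaction. Of all genes tested, 0.00906% were called in BAT over both sexes, and 0% in the other 11. In females the number of lymphocyte genes with an unadjusted p under 0.05 was 0 of 8 in BAT, 2 of 9 in SAT and 5 of 7 in VAT. Over all genes it was 388 of 10686, 605 of 11824 and 1066 of 11143 in the same order. In males it was 2 of 8 lymphocyte genes in BAT, 0 of 10 in SAT and 1 of 14 in VAT (all genes: 1054 of 10687, 165 of 11459 and 715 of 11357). Over both sexes it was 3 of 9 in BAT, 0 of 15 in SAT and 10 of 17 in VAT (all genes: 1215 of 11032, 333 of 12157 and 804 of 11664). For the interaction it was 1 of 9 in BAT, 0 of 15 in SAT and 10 of 17 in VAT (all genes: 266 of 11032, 792 of 12157 and 1243 of 11664).

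Female VAT had the most genes below an unadjusted p of 0.05 for its number tested, and both lymphoid-rich libraries of that depot were sham. Lck was at 4.22 to 20.5 CPM (median 5.90) in sham and 2.51 to 4.82 (median 3.52) in PCB 52 rats, a log2 fold change of -1.37 (SE 0.37, adjusted p = 0.42, edgeR). Without animals 8 and 10, sham Lck was at 4.22, 5.39, 5.46 and 6.34 CPM, overlapping PCB 52 in 1 library of each, and the change was -0.58 (SE 0.22, adjusted p = 0.95). Ltb was at -1.75 (adjusted p = 0.48) with all libraries and at 0.21 without the pair. Cd22 was at -1.49 and then at 0.09. Over the 7 tested genes the median log2 fold change was -1.37, with 6 below 0, and without the pair it was 0.04, with 3 below 0. For all genes the median was 0.01 in both.

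Male SAT held a lymphoid-rich library on each side. Lck was at 3.68 to 97.3 CPM (median 4.03) in sham and 2.05 to 301 (median 3.62) in PCB 52 rats. Of 10 tested genes, 9 had log2 fold changes above 0, with a median of 0.85, and without both libraries 4 of 10 were above 0, with a median of -0.13. Il7r was then at -0.85 (SE 0.32, adjusted p = 0.99, edgeR), the 1 gene with an unadjusted p under 0.05. Its values without both were 5.16, 6.84, 6.92, 7.76 and 15.7 CPM in sham and 2.68, 3.59, 4.76, 6.06 and 6.07 in PCB 52, with overlapping groups. Across both sexes in VAT, the 10 genes with an unadjusted p under 0.05 became 3 of 16 without the pair, Lck (-0.39), Zap70 (-0.88) and Bank1 (1.03). Over all genes 598 of 11741 then had such a p. Zap70 is listed at 0 in male PCB 52 animal 13, the VAT library with missing genes. Without that library as well, Lck was at -0.37, Zap70 at -0.69 and Bank1 at 1.14, again 3 of 16. The 10 of the VAT interaction became 0 of 16, and the median log2 difference, male minus female, went from 1.40 to 0.02. Without animal 13 as well, 2 of 16 had an unadjusted p under 0.05, Il7r (0.97) and Bank1 (1.81), with an adjusted p of 0.44 and 0.43 by edgeR. In SAT without its pair, 1 gene had an unadjusted p under 0.05 over both sexes, Cd8a (-1.07), and 1 for the interaction, Ltb (1.52). Both rested on female sham animal 8, the SAT library with missing genes. Without it as well, Cd8a was at -0.47 and Ltb at 0.60, 0 genes had such a p for the interaction, and Il7r (-0.59) was the 1 gene over both sexes. In none of these settings was a gene called.

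In the depots without a lymphoid-rich library on either side, the smallest p belonged to single genes. In male BAT, Il7r was at 0.997 to 5.41 CPM (median 2.77) in sham and 3.69 to 8.83 (median 4.40) in PCB 52, a log2 fold change of 0.78 (SE 0.33, adjusted p = 0.47, edgeR). Cd22 was at 2.16 to 5.57 CPM against 2.63 to 11.5, a log2 fold change of 0.71 (adjusted p = 0.47). In male VAT, Nkg7 was at 2.56 to 10.6 CPM in sham and 2.05, 2.57, 2.82, 3.25 and 3.78 in PCB 52 (-0.84, SE 0.37, adjusted p = 0.75, edgeR). In female SAT, Cd8a was at -1.63 and Ltb at -1.16, both with an adjusted p of 0.77. Both rested on sham animal 8, the library with missing genes, at 9.33 CPM for Cd8a and 32.1 for Ltb. Without it Cd8a was at -0.52 and Ltb at -0.22, and the lowest unadjusted p of the 10 genes then tested was 0.096, for Cd4. Groups overlapped for each of these 5 genes. In BAT over both sexes, Cd22 (0.59), Cd6 (0.58) and Ltb (-0.53) had an unadjusted p under 0.05 by DESeq2. So did Lck (0.94) for the BAT interaction, and none of them was called.

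Further lymphocyte genes from 2 wider lists were tested in the same fits. Of the other T and NK genes, 0 of 20 were called for PCB 52 in female VAT by edgeR, 19 of them below 0 with a median log2 fold change of -0.61, and without animals 8 and 10 it was 12 of 20 with a median of -0.12. Of the other B and plasma genes, 0 of 19 were called there, 17 below 0 with a median of -0.62, and without the pair 11 of 19 with a median of -0.03. Between male SAT and BAT in sham rats, 10 of 27 other T and NK genes were higher in SAT and 2 lower. Of 19 other B and plasma genes, 13 were higher and 2 lower. Of all genes 27.3% were higher and 3248 of 11580 were lower. Without SAT animal 11, 3 of 26 other T and NK genes were higher and 7 lower. Of 19 other B and plasma genes, 8 were then higher and 2 lower. Over all genes 26.1% were then higher and 3209 of 11647 lower.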

How the data were processed

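RNA-seq was made from about 100 mg of fat of tissue, from RNA with a RIN of at least 8, after poly(A) selection or ribosomal RNA removal, per the labels' protocols. The submitters' processing notes name FastQC, HISAT2 and the rn6 build. For the counting program and its strand setting the sources used here give nothing. The authors deposited 6 tables of raw read counts per NCBI gene number, 1 for each sex and depot, with no estimated counts in the gene lines: the deposited female VAT table has fractions only in spreadsheet summary lines under its genes, which were left out. Totals of 4604116 to 9707132 counts set the precision. Of 15319 genes, 15230 matched a symbol in RefSeq (GRCr8), 89 did not, and 5 lines that named no gene or repeated one were left out.

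The 32 genes and the other gene lists were chosen with earlier results of these data known. Genes named with every value were those of highest median CPM in each role and up to 4 genes of smallest p per comparison past the threshold. Comparisons used edgeR 4.0.16 in R 4.3.3 (TMM scaling, filterByExpr, quasi-likelihood test, Benjamini-Hochberg adjusted p under 0.05), fitted on all genes of the tables concerned. Log2 fold changes are PCB 52 over sham, male over female, or the first depot over the second. Standard errors are the log2 fold change over the root of F, an approximation. Relations used Pearson's r and Spearman's rho with permutation tests of 100000 resamples in Python 3.11.15 with scipy 1.17.1. The fitting code was tested on simulated data.

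Alternatives were DESeq2 1.42.0, its size factors, no filter, each library left out in turn, and a replicate block. Settings without the lymphoid-rich libraries, alone or with those that miss genes, were chosen after seeing the data. The lymphoid-rich libraries were named by the sum of the genes tested, so leaving them out gives no independent test of those genes. DESeq2 gives no p to a gene with a single outlying count and no adjusted p to some low ones, and such genes count as not called. No 2 libraries of a group held identical counts.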

Additional observations from a re-analysis of the deposited data

Results flagged for a closer look

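In 168 groups and measures (11 genes and 3 sums in 12 groups), the highest or lowest library was set against the nearest of the others. In 38 the gap was a larger part of the group's range than Dixon's 95% value allows, where chance flags about 1 in 20 groups of separate values. These are not separate: the sums hold the genes, and the sum over all genes named the lymphoid-rich libraries, which account for 26 of the 38. Male SAT PCB 52 animal 23 stood apart with 3428 CPM over all 29 genes, 1773 CPM for T and NK genes without Cd4 and 1169 CPM for B and plasma genes. Its single genes were Cd3e at 152 CPM, Cd247 at 109, Lck at 301, Il7r at 172, Prf1 at 49.7, Cd22 at 226, Cd79b at 221, Ikzf3 at 92.2 and Ltb at 272. Male SAT sham animal 11 stood apart with 1326 CPM over all 29 genes, 558 CPM for T and NK genes without Cd4 and 547 CPM for B and plasma genes. Its single genes were Cd3e at 45.8 CPM, Cd247 at 34.4, Lck at 97.3, Il7r at 49.1, Prf1 at 21.2, Cd22 at 108, Cd79b at 91.6, Ikzf3 at 35.3, Mzb1 at 8.67 and Ltb at 107.

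The other libraries that stood apart did so in fewer measures. With chance flagging about 1 in 20 groups, single flags among 168 can arise by chance, and they are listed only as values to look at. Female BAT PCB 52 animal 24 had 258 CPM over all genes, 31.9 CPM for B and plasma genes, 189 CPM of Cd4 and 25.97 CPM of Cd22. Its Csf1r was at 538 CPM. Female VAT sham animal 10 had 15.4 CPM of Mzb1. Female SAT sham animal 8, the library with missing genes, had 32.1 CPM of Ltb. Male VAT sham animal 9 had 14.8 CPM of B and plasma genes. Female SAT PCB 52 animal 14 had 2.07 CPM of Cd247 and 0.593 CPM of Mzb1. Male BAT sham animal 11 had 0.984 CPM of Cd247. Male VAT PCB 52 animal 23 had 9.03 CPM of Lck, female VAT PCB 52 animal 22 had 7.87 CPM of Il7r, and female VAT PCB 52 animal 24 had 4.04 CPM of Prf1.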

How the results depend on the processing

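The 4 lymphoid-rich libraries were the same with TMM-adjusted sizes, mean log2 CPM or a sum without Cd4. With DESeq2's size factors no count of called genes moved by over 1.5 times. Called genes between depots and sexes moved with other settings, and the cause was not tested beyond the libraries named. With DESeq2, which gave a p to 4 of 12 genes in males, they were 4 (female VAT against BAT), 2 (male SAT against BAT), 1 (male VAT against BAT) and 1 (male VAT against SAT). The shares of all genes called by DESeq2 were 31.2%, 56.8%, 51.6% and 28% in the same order. With no filter on low counts, more genes being tested, the called genes were 4 (sex in VAT), 9 (female VAT against BAT), 9 (female VAT against SAT), 22 (male SAT against BAT) and 10 (male VAT against SAT). The share of all genes called with no filter is not given here, so these counts cannot be set against it. Without the lymphoid-rich libraries the called genes were 2 (female SAT against BAT), 0 (female VAT against BAT), 0 (female VAT against SAT), 4 (male SAT against BAT), 3 (male VAT against BAT) and 6 (male VAT against SAT). All genes gave 44.8%, 17.4%, 31.1%, 53.6%, 52.2% and 19.3% in the same order. The title numbers recur in the depots, but the labels do not say that a number is 1 rat. The deviations of 68 same-number pairs had a median correlation of 0.0597, with 22 of the 68 over 0.1. In 340 other pairs the median was -0.0209, with 61 of the 340 over 0.1. A library's own number was the best match between depots in 48 of 136 cases. With the replicate block the called genes were 0 (female VAT against BAT), 1 (female VAT against SAT), 3 (male SAT against BAT) and 1 (male VAT against BAT). Shares of all genes were then 23.3%, 30.7%, 55.9% and 50.5% in the same order. With the replicate block and without the lymphoid-rich libraries they were 0 (female VAT against BAT), 0 (female VAT against SAT), 4 (male SAT against BAT), 3 (male VAT against BAT) and 4 (male VAT against SAT). All genes then gave 11.8%, 20.7%, 53.6%, 52.4% and 18.6% in the same order. The 4 of male VAT against SAT were Nkg7, Cd2, Ltb and Cd22, and Prf1 (1.22) and Cd8a (0.87) were not called there. In female SAT against BAT, Ltb (0.88) was not called in this setting. The block changed no other count by over 1.5 times. Leaving out 1 library gave 1 to 2 (sex in VAT), 1 to 2 (female SAT against BAT), 0 to 4 (female VAT against BAT), 1 to 4 (female VAT against SAT), 4 to 10 (male SAT against BAT), 0 to 3 (male VAT against BAT) and 2 to 6 (male VAT against SAT). Without the lymphoid-rich libraries, 63 of 169 fold changes changed sign. The 13 with an unadjusted p under 0.05 with all libraries were, on the log2 scale, treatment Female VAT: Cd22 (0.087) and treatment Female VAT: Ltb (0.21), interaction VAT: Ikzf3 (-0.14, and -0.029 without male PCB 52 animal 13 as well) and interaction VAT: Pou2af1 (-0.75, and -1.40), and sex in sham VAT: Ikzf3 (0.83). Between depots they were depot Female sham VAT vs BAT: Ltb (-0.10) and depot Female sham VAT vs BAT: Blk (-0.92, and -0.27 with the block), depot Female sham VAT vs SAT: Cd6 (-0.018) and depot Female sham VAT vs SAT: Ikzf3 (-0.079, and -0.21 with the block). In males they were depot Male sham SAT vs BAT: Cd6 (-0.14, and -0.10 with the block) and depot Male sham SAT vs BAT: Ikzf3 (-0.24, and -0.19 with the block), depot Male sham VAT vs SAT: Cd6 (0.75, and 0.62 with the block) and depot Male sham VAT vs SAT: Ikzf3 (0.54, and 0.52 with the block). Leaving out 1 male library gave -0.14 to 3.61 and -0.24 to 2.72 for Cd6 and Ikzf3 in SAT against BAT, and -2.95 to 0.75 and -2.38 to 0.54 in VAT against SAT. No paired analysis was possible for treatment or sex, whose groups share no title numbers. Depth limits most of the genes: 12 to 22 of the 29 did not pass the filter.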
